A study of Mus musculus with 16 samples.

Results

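The late change of gene expression, between 24 h and 42 h of culture with an activating autoantibody, was examined in AM14 B cells of 3 genotypes. The antigen receptor of AM14 B cells recognises IgG, and PL2-3 is a monoclonal antibody against chromatin that such cells bind through that receptor. Bound PL2-3 carries DNA and RNA to the endosomal receptors TLR9, which senses DNA, and TLR7, which senses single-stranded RNA. The 42 h arrays were those of WT, TLR7 KO (Tlr7-/-) and TLR7 TLR9 KO (Tlr7/9-/-, called the double knockout) cells, 1 array each. The 24 h arrays were those of the same 3 genotypes, again 1 array each. These are 6 of the 16 arrays of the series, which also holds arrays at 0 h and 6 h and a TLR9 KO (Tlr9-/-) genotype. The 24 h and 42 h arrays of TLR9 KO were left out of the tests because their order is in doubt, and their values are given at the end, as labelled. All groups were splenic B cells of the AM14 strain, all had received PL2-3, and no culture without it was measured, so effects of the antibody cannot be told apart from those of culture. The sources used here do not give the breeding, age or sex of the mice, the dose of PL2-3, or the number of mice behind each RNA.

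When a resting B cell is driven to divide, it first grows, building ribosomes under the control of MYC, then copies its DNA while making new histones, and then enters mitosis. Genes of mitosis peak after those of DNA replication in each cycle, and the 2 groups are switched on through different promoter elements. Mature resting B cells instead express genes of quiescence and of recirculation, such as Klf2 and S1pr1.

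Each array set a sample in Cy5 against a common Cy3 pool made from unstimulated cells of the 4 genotypes, and levels below are the log2 of Cy5 over Cy3, so that 0 is the level of the pool. There were no replicates within a genotype and time. Each 42 h array was set against the 24 h array of its own genotype, and the genotypes stood in for replicates. A p-value therefore weighs the mean of the 3 pair differences against how far the 3 pairs disagreed. Of the 3 pairs, an exact test on a single gene could not go below a p of 0.25, and calls therefore rest on the variance that limma shares over genes. Between 40.9% and 62.7% of spots on these 6 arrays stood well above background in Cy5, lowest on the WT 42 h array and highest on the TLR7 KO 42 h array. The WT 42 h array had a blank patch in which both colours were near background, and its 7589 spots (12.8%) were left out. WT and TLR7 KO lay on slide 1 and the double knockout on slide 2, both times of a genotype on the same slide. Tlr7 gave 0.91, -0.41 and 0.41 at 42 h and 0.91, -0.20 and 0.36 at 24 h in WT, TLR7 KO and double-knockout cells, lowest in TLR7 KO. Tlr9 gave -0.57, -0.54 and -0.44 at 42 h and -0.84, -0.75 and -0.31 at 24 h in the same order, so its probe did not separate the double knockout, which lacks the gene, from the others. Of the markers of B cells, 23 of 25 were tested and Cd79a, Cd79b, Ms4a1 and Pax5 were well above background on all 3 arrays at 42 h.

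The first question was which genes changed in the same way in all 3 genotypes. Genes of mitosis and of the histones rose. Of 12598 genes tested, 55 (0.437%) were higher at 42 h at an adjusted p under 0.05 (limma, Benjamini-Hochberg) and 0 (0%) were lower. At an unadjusted p under 0.05 the counts were 1145 higher (9.09%) and 1105 lower (8.77%). The called genes were higher by 0.90 to 3.01 log2 units (1.86-fold to 8.06-fold, median 3.23-fold), and their adjusted p ranged from 0.0122 to 0.0481. In 52 of the 55 every 42 h array lay above every 24 h array, which held for 991 (7.87%) of all genes tested. The 67 genes that were at least 2-fold higher in each genotype made up 0.532% of those tested, and 52 of the called genes were among them. The call depended on the scaling of the arrays and on the WT and TLR7 KO pairs, since it was lost without either of these (0 genes each). Without the double knockout 4513 genes were called, all 55 among them. Every one of the 55 kept a positive difference under all 15 alternatives tried, of at least 0.17. All 55 were higher in each of the 3 genotypes, so leaving out a pair or the pairing could not turn their sign. With the blank patch kept, 26 genes were called, all of them among the 55.

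Of the called genes, 14 stood on the list of mitosis genes, 7 on the list of replication-dependent histones, 2 on other lists and 32 on no list. Of the 21 tested members of the mitosis list (25 members in all), 14 rose and 0 fell, 20 were higher in all 3 genotypes (19% of all genes tested), and 19 had every 42 h array above every 24 h array. The median difference of the list was 1.73, against -0.01 over all genes tested. It was 1.56 in WT, 1.77 in TLR7 KO and 2.02 in the double knockout, where all genes tested had medians of 0.00, -0.02 and -0.01.

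Ube2c, the ubiquitin-conjugating enzyme of the anaphase-promoting complex, had the largest rise on the mitosis list. It had levels of 4.44, 4.53 and 3.06 at 42 h in WT, TLR7 KO and double-knockout cells, against 2.03, 1.63 and -0.08 at 24 h. The lowest 42 h array, that of the double knockout, was above the highest 24 h array, that of WT. The mean difference was 2.82 ± 0.16 (SE, n = 3 pairs, limma adjusted p = 0.0147), a 7.04-fold rise. Cdc20, which activates the same complex, had levels of 3.69, 3.67 and 2.29 at 42 h and of 1.59, 1.68 and 0.52 at 24 h, a difference of 1.95 ± 0.11 (limma adjusted p = 0.0147).

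Among the kinases and cyclins of mitotic entry, Ccnb2, Plk1, Aurka and Ccnb1 rose and Cdk1 did not pass. Ccnb2, a B-type cyclin, had levels of 3.65, 3.58 and 2.70 at 42 h, against 1.39, 1.36 and 0.26 at 24 h in WT, TLR7 KO and double-knockout cells. Its difference was 2.31 ± 0.10 (limma adjusted p = 0.0122), and the 3 pairs lay within 2.23 to 2.44. Plk1, a mitotic kinase, had levels of 3.91, 3.87 and 2.67 at 42 h and of 1.96, 1.69 and 0.39 at 24 h, a difference of 2.14 ± 0.11 (limma adjusted p = 0.0139). The 42 h level in the double knockout was above each 24 h level for both genes, though it stayed below that of the other genotypes at 42 h. Aurka, a kinase of the spindle poles, rose by 1.53 ± 0.11, and Ccnb1, the other B-type cyclin, by 1.69 ± 0.16.

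Mki67, which coats mitotic chromosomes and serves as a marker of dividing cells, had levels of 4.55, 4.52 and 3.41 at 42 h, against 2.11, 2.06 and 0.59 at 24 h. Its difference of 2.57 ± 0.12 (limma adjusted p = 0.0122) was 5.95-fold. Genes of the spindle and of cytokinesis followed. The motor genes Cenpe, Kif20a, Kif23, Kif11 and Kif4 rose by 1.54 to 2.10, the spindle assembly factor Tpx2 by 1.90, and Birc5, a subunit of the chromosomal passenger complex, by 1.73. Among genes on no list, Aspm, a protein of the spindle poles, rose by 2.20 ± 0.13, Depdc1b by 2.15 ± 0.15, and Cdkn3, a phosphatase that acts on cyclin-dependent kinases, by 2.33 ± 0.22.

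The mitosis members that did not pass were Nusap1, Prc1, Bub1, Foxm1, Top2a, Cdk1 and Cenpf. Nusap1, a microtubule-binding protein, had a difference of 2.19 with an adjusted p of 0.0601 (limma). Cdk1, the kinase that B-type cyclins activate, had 1.07 (limma adjusted p = 0.0999). Cenpf, a kinetochore protein, stood apart at 0.12, with pair differences from -0.05 to 0.31. Aurkb, Bub1b, Cenpa and Hmmr were on the array but not tested.

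**Figure D1:**
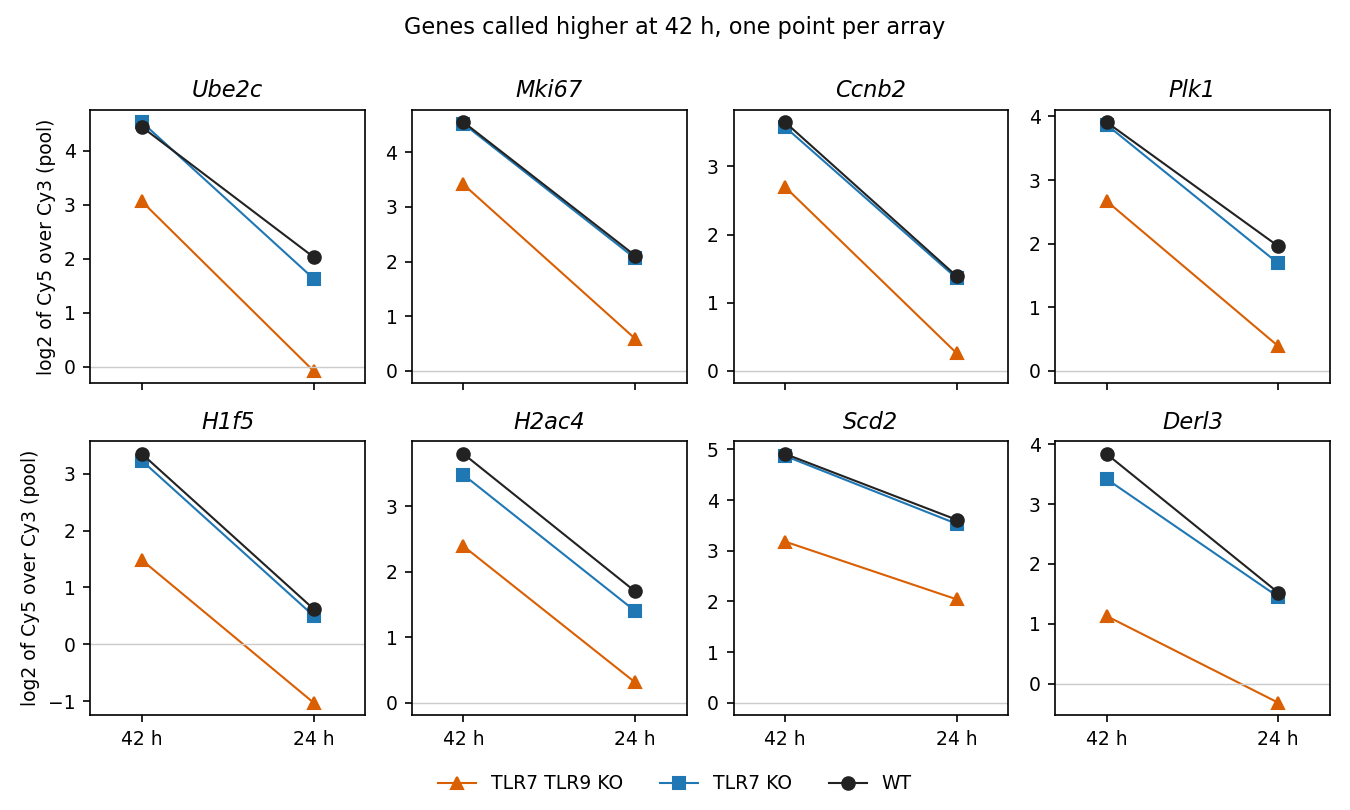
Levels of 8 genes called higher at 42 h, on the y axis as the log2 of Cy5 over the Cy3 pool, with 42 h and 24 h on the x axis, 1 point per array and a line joining the arrays of a genotype. Every line falls to the right, by 2.41 to 3.14 for Ube2c, and the double knockout lies below the other genotypes at both times.

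The earlier arrays give the course of these lists. The median level of the mitosis list at 0, 6, 24 and 42 h was -0.07, -0.13, 1.96 and 3.62 in WT, 0.12, -0.12, 1.86 and 3.77 in TLR7 KO, and 0.00, -0.17, 0.58 and 2.70 in the double knockout. The list of DNA replication genes had medians of 2.05 in WT and 1.94 in TLR7 KO at 24 h, and stood at 2.29 and 2.15 at 42 h. In the double knockout it stood at 0.98 at 24 h and 1.73 at 42 h. Of its 20 tested members 0 passed in either direction. Its median difference was 0.31, and Rrm2, a subunit of ribonucleotide reductase, had the highest, 1.37 (limma adjusted p = 0.148).

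The promoters of the mitosis genes were read for the sequence features that such genes are known to share, the CCAAT box bound by NF-Y and the element TTTGAA, one form of the cell cycle genes homology region. Sequences are from RefSeq on GRCm38.p6, the 250 bases before the annotated start, on the strand of the gene, with matches on either strand in capitals. Ube2c, Ccnb2 and Mki67 are shown as leading members of the mitosis list, and lie at chr2:164769679-164769928 (+), chr9:70421555-70421804 (-) and chr7:135716380-135716629 (-).
Ube2c: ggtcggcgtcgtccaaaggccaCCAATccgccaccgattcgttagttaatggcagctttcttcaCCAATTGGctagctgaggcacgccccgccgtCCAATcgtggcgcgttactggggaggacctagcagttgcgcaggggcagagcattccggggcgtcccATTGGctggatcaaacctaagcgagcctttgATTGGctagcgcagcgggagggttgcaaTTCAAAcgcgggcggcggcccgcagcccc
Ccnb2: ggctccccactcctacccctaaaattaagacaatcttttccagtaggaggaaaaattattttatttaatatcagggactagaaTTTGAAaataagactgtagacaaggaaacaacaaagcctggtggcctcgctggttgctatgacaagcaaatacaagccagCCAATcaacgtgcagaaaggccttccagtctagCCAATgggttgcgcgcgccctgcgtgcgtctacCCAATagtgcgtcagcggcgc
Mki67: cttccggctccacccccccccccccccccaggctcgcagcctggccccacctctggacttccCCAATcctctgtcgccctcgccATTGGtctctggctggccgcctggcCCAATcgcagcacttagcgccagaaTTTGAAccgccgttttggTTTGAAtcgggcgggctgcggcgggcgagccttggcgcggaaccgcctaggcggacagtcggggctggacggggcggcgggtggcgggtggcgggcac

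CCAAT was found 6 times before Ube2c, with 1 overlapping pair on opposite strands, and 3 times each before Ccnb2 and Mki67. TTTGAA was found 1, 1 and 2 times. Of the 21 tested mitosis genes 18 had 19 promoters in the table, and 17 of these (89.5%) held CCAAT, against 33.8% of all 32851 promoters and 35.4% of those of the genes tested. TTTGAA was in 8 (42.1%), against 16% of all promoters and 11.4% of those of the genes tested. Promoters of DNA replication genes held CCAAT in 13 of 20 (65%) and TTTGAA in 3 (15%). Over all called genes, 37 of 48 promoters (77.1%) held CCAAT and 17 (35.4%) held TTTGAA. A match is a description of these letters and not of a bound site.

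The replication-dependent histone genes, which are copied in tandem clusters and whose transcripts are made in S phase, were the other group that rose. Of 24 tested members (31 in all), 7 rose and 0 fell, 18 were higher in all 3 genotypes, and the median difference was 1.42. H1f5, a linker histone, had levels of 3.35, 3.23 and 1.48 at 42 h in WT, TLR7 KO and double-knockout cells, against 0.62, 0.50 and -1.03 at 24 h, a difference of 2.66 ± 0.11 (limma adjusted p = 0.0122). All 42 h arrays were above all 24 h arrays. H2ac4, a histone H2A gene, had 3.80, 3.48 and 2.39 at 42 h and 1.70, 1.40 and 0.31 at 24 h, and its 3 pair differences of 2.10, 2.08 and 2.09 were nearly equal. The same table of promoters gives H2ac4 at chr13:23750838-23751087 (+), shown for its CCAAT boxes in capitals.
H2ac4: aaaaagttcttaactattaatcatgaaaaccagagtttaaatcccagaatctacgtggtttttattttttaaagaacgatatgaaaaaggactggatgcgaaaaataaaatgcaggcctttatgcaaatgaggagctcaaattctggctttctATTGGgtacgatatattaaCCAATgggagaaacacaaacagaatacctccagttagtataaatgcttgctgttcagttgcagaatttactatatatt

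CCAAT was in 18 of 21 promoters (85.7%) of the histone list. H2ac22, a histone H2A gene that is not on the list, had the largest rise of the called genes, 3.01 ± 0.27 (limma adjusted p = 0.034), followed by H2ac11 at 2.88 ± 0.21. H2ac12, also outside the list, H2ac20 and H2ac15 rose by 2.52 to 2.71 and H3c13, a histone H3 gene, by 1.80. H2az1, on the same list although it encodes the variant H2A.Z that is also made outside S phase, rose by 1.17. Copies of a histone are nearly identical, and the probes of H2ac12 and H2ac20 share a run of 42 of their 60 bases, so these genes cannot be told apart on this array. The probes of H2ac11 and H2ac12 share 39 bases and those of H2ac11 and H2ac22 share 32, whereas the probe of H2ac4 shares at most 7 with those of the other called H2A genes and that of H2ac15 at most 10. The histone list had a median level below that of the pool at 6 h (-1.73 in WT, -1.72 in TLR7 KO, -1.62 in the double knockout) and at 24 h (-0.22, -0.26 and -0.96), and stood at 1.76, 1.33 and 0.06 at 42 h.

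The remaining called genes on a list were Scd2 and Derl3. Scd2, a desaturase that makes monounsaturated fatty acids, had levels of 4.91, 4.87 and 3.18 at 42 h, against 3.61, 3.53 and 2.04 at 24 h, a difference of 1.26 ± 0.10 (limma adjusted p = 0.0274). It was the 1 member of 11 tested on the fatty acid synthesis list that passed. Derl3, of the machinery that returns misfolded proteins from the endoplasmic reticulum for degradation and high in plasma cells, had 3.84, 3.42 and 1.13 at 42 h, against 1.52, 1.45 and -0.32 at 24 h, a difference of 1.91 ± 0.19 (limma adjusted p = 0.0389). For both genes the double knockout at 42 h lay below the other genotypes at 24 h, so the groups overlapped although each pair rose. Of 13 tested plasma cell genes Derl3 alone passed. The genes on no list included Hmgb2, a chromatin protein (1.76 ± 0.11), Lxn, an inhibitor of carboxypeptidases (1.37 ± 0.13), and Csrp2, a LIM-domain protein (1.04 ± 0.10).

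Among the genes that were lower at 42 h in all 3 genotypes none passed. Rgs1, which limits signalling of chemokine receptors, was the single gene at least 2-fold lower in each (0.00794% of genes tested). It had levels of 0.40, 0.42 and 1.70 at 42 h in WT, TLR7 KO and double-knockout cells, against 2.02, 2.12 and 2.70 at 24 h, and all 42 h arrays were below all 24 h arrays, as for 9.22% of genes tested. Its difference was -1.44 ± 0.17 (limma adjusted p = 0.0601). Ercc1, a subunit of a DNA repair nuclease, had -1.02 ± 0.11 (adjusted p = 0.0522), and Bcat1, which transfers amino groups of branched-chain amino acids, -0.84 ± 0.10 (adjusted p = 0.0645). Other probes of Bcat1 had -0.02 and -0.47 in the double knockout, -1.26 and -1.23 in WT, and -1.0 and -1.33 in TLR7 KO. Hbb-bs, a globin gene of red cells, had -1.12 ± 0.17 (adjusted p = 0.0999).

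Markers of other cell types were followed beside these results. Of 15 T cell, 12 NK and plasmacytoid, 16 myeloid and 11 erythroid markers tested, 0 passed in either direction. Their median differences were 0.01, 0.12, 0.10 and -0.34. Mpeg1, a pore-forming protein of phagocytes, was the closest to the threshold, with 1.34 ± 0.16 (limma adjusted p = 0.0617). Of the 16 myeloid markers, 3 were higher in all 3 genotypes and 1 was lower, against 19% and 21.8% of all genes tested. The lower 1 was Adgre1, with -0.76 ± 0.14 (limma adjusted p = 0.15). Cd8a, S100a8 and Itgax were not well above background on any array at 42 h. The part of other cells in the result was not tested, and fewer cells of a type and less RNA per cell cannot be told apart in such samples.

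The next comparison asked whether the late change was the same without either receptor. The 42 h minus 24 h differences of WT and TLR7 KO lined up across the 12598 genes (Pearson r = 0.87), and those of the double knockout lined up with neither (r = 0.11 with WT and 0.21 with TLR7 KO). These correlations are across genes, which are not independent replicates, and all arrays share the pool. The SD of the differences over genes was 0.331 in the double knockout, 0.481 in WT and 0.460 in TLR7 KO. A limma model of the difference of differences, the double knockout less the mean of WT and TLR7 KO, called 2165 genes (17.2%), 1182 higher (9.38%) and 983 lower (7.8%) in the double knockout. This model has 1 residual degree of freedom, the gap between the WT and TLR7 KO pairs, and the double knockout, the sole genotype of this comparison on slide 2, cannot be told apart from the slide. TLR9 KO was not in the model, so it does not separate loss of both receptors from loss of TLR9 alone. Median centring called 4712 genes, 4569 of them higher in the double knockout (97%, against 54.6%) and 143 lower. The median over all genes tested was then 0.62. The processed signals in the authors' series table called 0. The Cy5 channel alone called 731, and 917 were called with the blank patch kept.

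**Figure D2:**
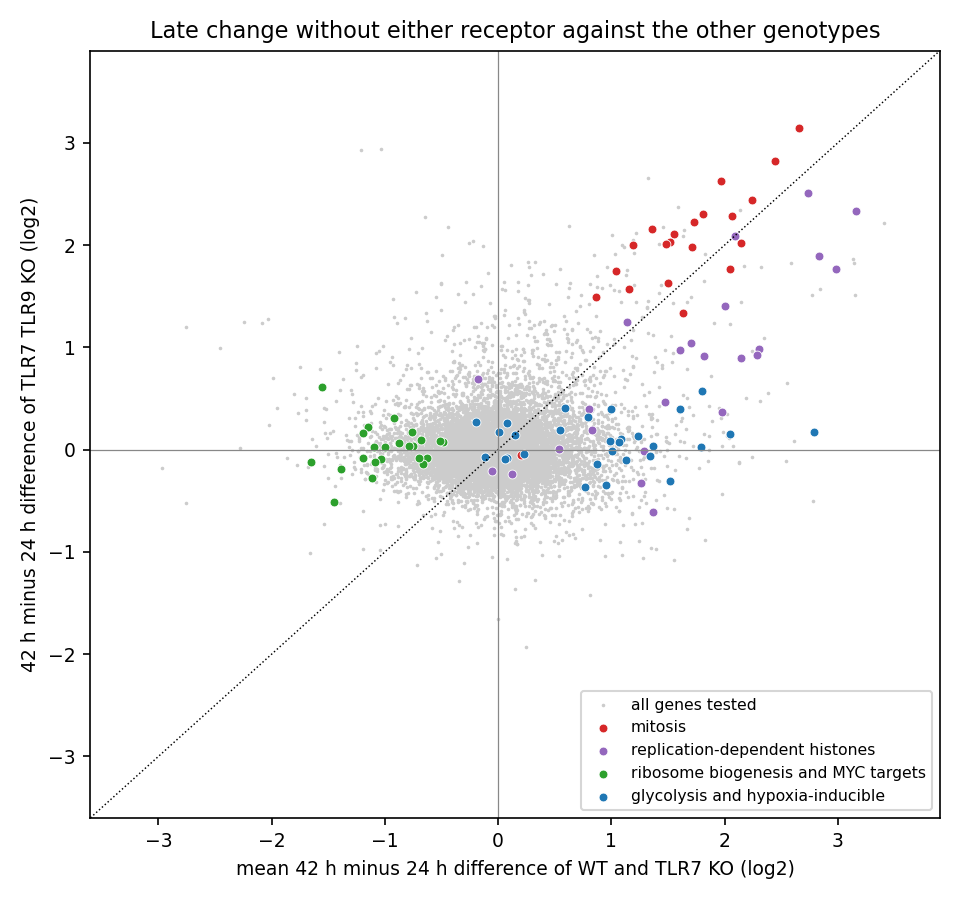
The 42 h minus 24 h difference (log2) of the double knockout on the y axis against the mean difference of WT and TLR7 KO on the x axis, 1 point per gene, with the members of 4 lists in colour and a dotted line where both are equal. Mitosis genes lie near or above the line. Genes of ribosome biogenesis tend to lie left of 0 and those of glycolysis right of 0, at median heights of 0.03 and 0.08.

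Genes of growth had, in the median, 42 h minus 24 h differences near 0 in the double knockout and below 0 in the other genotypes. On the list of ribosome biogenesis and MYC targets, 19 of 23 tested members differed, all higher in the double knockout. The median differences were 0.03 in the double knockout, -0.97 in WT and -0.93 in TLR7 KO. Myc itself, the transcription factor that drives growth, had 0.61 in the double knockout against -1.76 in WT and -1.35 in TLR7 KO, a difference of 2.17 (limma adjusted p = 0.00216). Polr1b, a subunit of RNA polymerase I, had levels of 1.32 in the double knockout, 0.50 in WT and 0.61 in TLR7 KO at 42 h, and of 1.43, 2.21 and 2.19 at 24 h in the same order. On this probe the double knockout and the others thus lay apart at both times, in opposite directions. Another probe of Polr1b had smaller 42 h minus 24 h differences, -0.17 in the double knockout, -0.36 in WT and -0.56 in TLR7 KO. The list as a whole stood at 2.25 in the double knockout, 2.51 in WT and 2.46 in TLR7 KO at 6 h, then at 1.11, 1.89 and 1.86 at 24 h, and at 1.09, 1.03 and 0.93 at 42 h.

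Genes of glycolysis and genes inducible by hypoxia had, in the median, differences above 0 in WT and TLR7 KO and near 0 in the double knockout. Of 29 tested members 17 differed, all lower in the double knockout, and the median differences were 0.08 in the double knockout, 0.98 in WT and 0.97 in TLR7 KO. Under median centring 5 were lower and 3 higher, where 143 and 4569 of all 12598 genes tested were. The medians relative to all genes were then 0.12, 0.66 and 0.85 in the same order. Bnip3, a mitochondrial protein induced by low oxygen, had levels of -0.17 in the double knockout, 3.09 in WT and 2.92 in TLR7 KO at 42 h, and of -0.34, 0.07 and 0.36 at 24 h. All 3 genotypes were near the pool at 24 h, and the double knockout alone was near it at 42 h. The difference of differences was -2.61 ± 0.22 (limma adjusted p = 0.00166). Egln3, an oxygen-sensing hydroxylase, had -1.90 ± 0.26 (adjusted p = 0.0052) and was well above background in Cy5 on 2 of 3 arrays at each time. The glycolytic enzymes Tpi1, Pkm, Pgk1 and Aldoa had differences of 0.57, 0.04, -0.06 and -0.01 in the double knockout, against 1.76, 1.46, 1.34 and 0.99 in WT. Hk1, Hk2 and Pfkfb3, enzymes or regulators of the same pathway, did not pass. The promoter of Bnip3 (GRCm38.p6, chr7:138909507-138909756, -) is shown for the core ACGTG of the hypoxia response element, which it holds on both strands as the palindrome in capitals.
Bnip3: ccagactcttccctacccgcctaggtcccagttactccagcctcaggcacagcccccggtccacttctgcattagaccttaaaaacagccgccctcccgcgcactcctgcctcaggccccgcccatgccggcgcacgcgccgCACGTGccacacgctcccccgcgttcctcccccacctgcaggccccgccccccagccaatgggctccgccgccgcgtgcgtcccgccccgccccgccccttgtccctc

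ACGTG, on either strand, was in 17 of 40 promoters (42.5%) of the tested members of this list, which have 27 genes in the table, against 16.6% of all promoters and 21.1% of those of the genes tested.

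**Figure D3:**
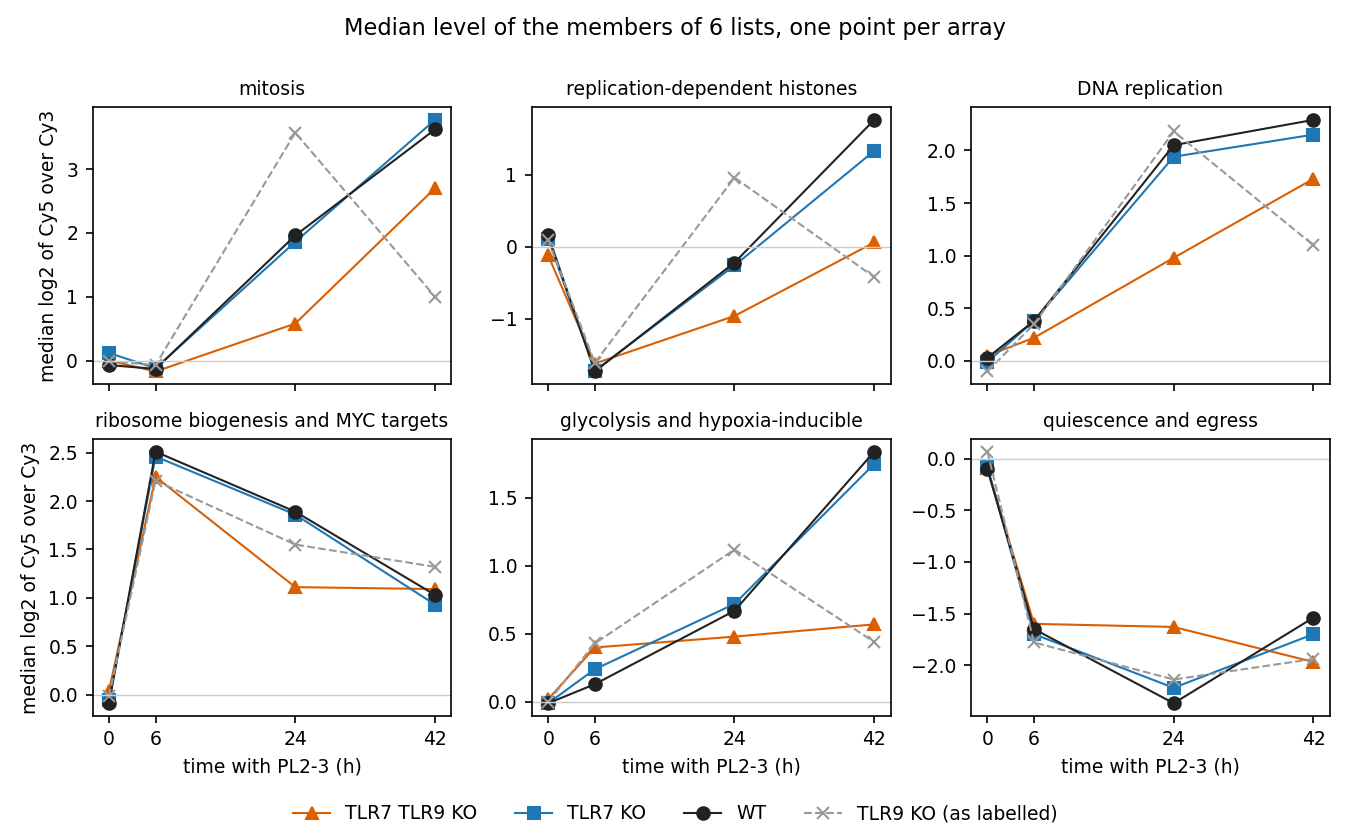
Median level of the members of 6 lists (y axis, log2 of Cy5 over the Cy3 pool) at 0, 6, 24 and 42 h with PL2-3 (x axis), 1 point per array and a line per genotype, TLR9 KO dashed as labelled. The mitosis median of the double knockout is 0.58 at 24 h and 2.70 at 42 h, and its glycolysis median is 0.48 and 0.57.

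Genes of quiescence and recirculation had median levels of -1.60 in the double knockout, -1.65 in WT and -1.70 in TLR7 KO at 6 h. At 24 h they stood at -1.63, -2.37 and -2.22, and at 42 h at -1.97, -1.54 and -1.70 in the same order. Of 21 tested members 12 were lower and 2 higher in the double knockout. Under median centring 7 were lower and 4 higher, where 143 and 4569 of all 12598 genes tested were. The median differences of the list were -0.32 in the double knockout, 0.53 in WT and 0.63 in TLR7 KO. Klf2, a transcription factor of resting and recirculating lymphocytes, had levels of -4.35 in the double knockout, -2.72 in WT and -2.69 in TLR7 KO at 42 h, and of -3.47, -4.66 and -4.40 at 24 h. It was thus highest in the double knockout at 24 h and lowest there at 42 h, a difference of -2.70 ± 0.18 (limma adjusted p = 0.00111). In TLR9 KO, as labelled, Klf2 stood at -3.86 at 42 h and -5.34 at 24 h, a rise as in WT. S1pr1, the receptor for exit from lymphoid organs, had -0.49 in the double knockout, 1.79 in WT and 0.99 in TLR7 KO. Ccr7, a receptor for entry into T cell zones, and Il7r were the 2 that were higher in the double knockout. Gimap7, a small GTPase of lymphocytes, had -1.08 in the double knockout, 1.71 in WT and 1.39 in TLR7 KO, and 6 of 8 GIMAP genes were lower in the double knockout (1 under median centring).

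Of 22 tested immediate early genes of the antigen receptor 8 were higher and 2 lower in the double knockout, and the median difference of differences of the list was 0.11. Egr2, an early response transcription factor, had levels of 5.39 in the double knockout, 1.59 in WT and 1.95 in TLR7 KO at 42 h, and of 5.91, 4.44 and 4.60 at 24 h. Its 42 h minus 24 h difference was -0.52 in the double knockout, against -2.85 in WT and -2.66 in TLR7 KO, a difference of 2.23 ± 0.17 (limma adjusted p = 0.00139). In TLR9 KO, as labelled, Egr2 stood at 5.74 at 42 h and 4.35 at 24 h. Of 2 genes on other lists, whose called members went both ways, Il2ra, the high-affinity subunit for interleukin-2, had 0.24 in the double knockout, -1.92 in WT and -2.13 in TLR7 KO, and Pdcd1, the inhibitory receptor PD-1, had 0.54, -1.71 and -1.89. Cells of TLR9 KO, as labelled, had 0.39 for Il2ra and 0.56 for Pdcd1, near the double knockout.

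The largest differences of differences were those of Siglecf, Lpl, Ccl4, Mreg, Cst7 and Grhl1, higher in the double knockout. Siglecf, a sialic acid-binding lectin known from eosinophils, had levels of 4.87 in the double knockout, 0.45 in WT and 0.52 in TLR7 KO at 42 h, and of 1.94, 1.56 and 1.82 at 24 h. The genotypes lay close together at 24 h and of these 3 the double knockout was high at 42 h. On the TLR9 KO arrays, as labelled, Siglecf stood at 2.13 at 42 h and 4.38 at 24 h. The difference of differences was 4.13 ± 0.17 (limma adjusted p = 0.000278). Under the processed signals the mean of the 3 pairs for this gene was -1.33 in place of 0.17. Lpl, lipoprotein lipase, had levels of 3.25 in the double knockout, -0.69 in WT and -0.78 in TLR7 KO at 42 h, and of 0.31, 0.05 and 0.53 at 24 h. It was well above background in Cy5 on 2 of 3 arrays at 42 h.

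The chemokine gene Ccl4 took another course. It had levels of 3.74 in the double knockout, 4.44 in WT and 4.64 in TLR7 KO at 42 h, and of 2.54, 7.23 and 7.36 at 24 h, after 6.11, 8.32 and 8.56 at 6 h. The double knockout was the lowest at 24 h and had moved towards the others by 42 h, a difference of differences of 3.96 ± 0.16 (limma adjusted p = 0.000278). Cst7, an inhibitor of lysosomal cathepsins, had 5.73 in the double knockout, 1.14 in WT and 1.36 in TLR7 KO at 42 h, and 4.74, 3.79 and 3.64 at 24 h. It was also high in TLR9 KO, as labelled, at 4.99 at 42 h and 5.38 at 24 h. Serpina3g, a serpin of lymphocytes, was the largest in the other direction, with levels of -1.79 in the double knockout, 0.80 in WT and 0.34 in TLR7 KO at 42 h, and of -1.29, -2.27 and -2.16 at 24 h.

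**Figure D4:**
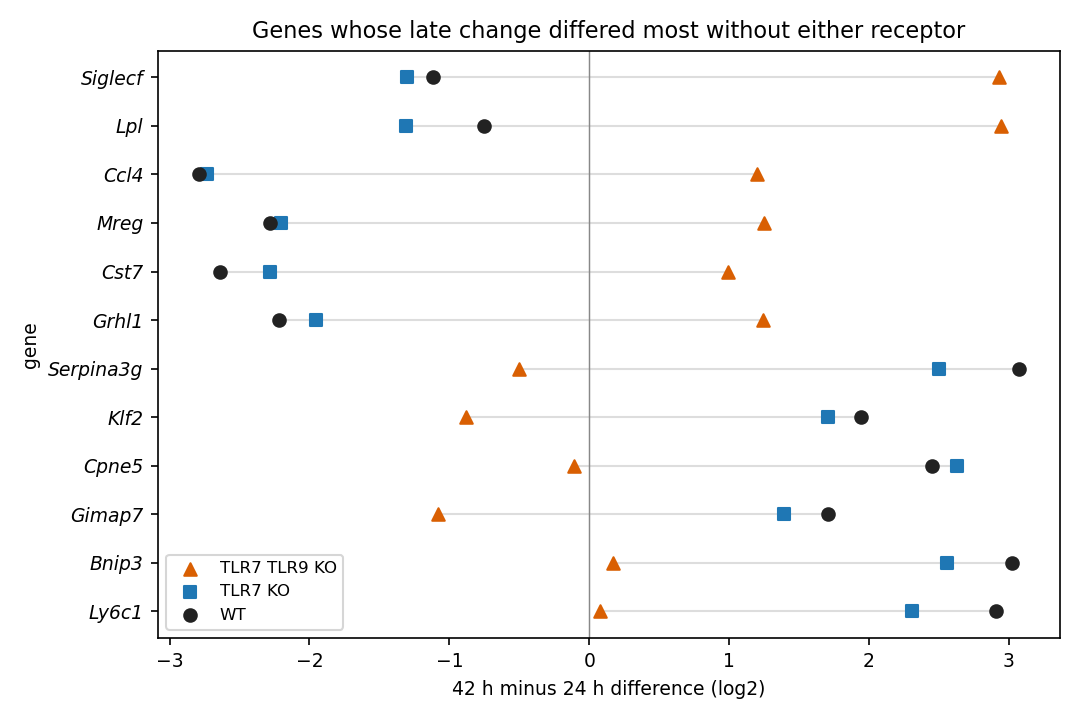
The 42 h minus 24 h difference (x axis, log2) of each genotype for the 12 genes whose late change differed most in the double knockout, 1 row per gene and 1 point per pair of arrays. For each gene the WT and TLR7 KO points lie together and the double knockout apart, at 2.93 against -1.12 and -1.30 for Siglecf and at -0.88 against 1.94 and 1.71 for Klf2. The genes were selected for this difference, so the separation follows in part from the selection.

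The mitosis and histone lists were followed in this comparison too. Of 21 mitosis genes 4 differed, all higher in the double knockout (Prc1, Bub1, Top2a and Cdk1). Over all genes tested 17.2% differed and 9.38% were higher. None of the 4 was among the 55 called genes. A gene whose pairs disagree is less likely to be called, so this follows in part from the selection. Under median centring 13 of the mitosis genes were higher, as were 4569 of all 12598 genes tested. Of 24 histone genes 13 were lower and 1 was higher, against 7.8% and 9.38% of all genes tested. The list had medians of 0.91 in the double knockout, 1.77 in WT and 1.59 in TLR7 KO. Under median centring 3 were lower and 2 higher, where 143 and 4569 of all 12598 genes tested were. H1f2, a linker histone, had -0.33 in the double knockout, 1.34 in WT and 1.19 in TLR7 KO. Of the 55 called genes 6 had a smaller rise in the double knockout, namely H2ac11, H2ac12, H2ac15, H2ac20, H2ac22 and Pttg1, the securin of sister chromatids. Over all genes tested 7.8% were lower there, and the selection of genes whose pairs agree limits this count too. DNA replication genes differed in 10 of 20, all higher in the double knockout (19 under median centring), with medians of 0.81 in the double knockout, 0.04 in WT (-0.30 relative to all genes under median centring) and 0.20 in TLR7 KO.

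The TLR9 KO arrays, as labelled, were opposite to the other genotypes for the called genes, though not for every list. All 55 called genes were lower on the array labelled 42 h than on that labelled 24 h. The median level of the mitosis list was 1.0 at 42 h and 3.57 at 24 h, and the median difference was -2.42. The list of quiescence and egress had a median difference of 0.55 in TLR9 KO, against 0.53 in WT, 0.63 in TLR7 KO and -0.32 in the double knockout. The GIMAP genes had 0.64, against 0.56, 0.26 and -0.52 in the same order. On both lists TLR9 KO, as labelled, was thus opposite to the double knockout and not to WT or TLR7 KO. Across 12593 genes the TLR9 KO differences had a Pearson r of -0.62 with those of the double knockout, -0.02 with WT and -0.15 with TLR7 KO. With this pair added as labelled, 0 genes were called. A difference between TLR9 KO and the other genotypes was not tested.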

How the data were processed

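The series holds 16 Agilent 2-colour mouse arrays, 1 per genotype and time. Per the labels, RNA was extracted with Trizol, cleaned on RNeasy columns and amplified with labelled CTP, the sample in Cy5 and a pool of unstimulated RNA in Cy3, with no dye swap. Per the file headers, images were read with Feature Extraction 10.1.1.1, and the deposited intensity values are the mean foreground and median background of each spot, with processed signals beside them. The authors' deposited series table holds log10 ratios that equal the processed Cy5 over Cy3 within 5e-04, and other deposited columns are flags of 0 or 1. Column medians of that table lie between -0.144 and 0.022.

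Intensities were corrected with normexp (offset 50) and loess by limma 3.58.1, run under R 4.3.3, and tables were handled in data.table (version 1.17.8). Control spots and outlier flags were left out. Of 55681 probes, 24300 had no symbol in the RefSeq table and 27235, 3581 and 565 were named by accession, symbol and older symbol. A probe was tested when Cy5 or Cy3 stood well above background on 3 or more of the 6 arrays and it was measured on all of them, and the brightest stood for its gene. A pair differs by 42 h less 24 h, with genotype as a block taken from the labels (2 residual degrees of freedom), 2-sided, at an adjusted p of 0.05. The arrays' number limits the precision.

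A blank patch was found on the WT 42 h array after a first fit had been run, when several named genes read near 0 there. Spots were left out in blocks of 16 rows and 8 columns in which at least 20% of the spots with Cy3 pool signal on at least 14 of the other 15 arrays had lost it. Only the Cy3 channel was used. Of 504 blocks 63 met this on the WT 42 h array and 0 on the other 5 arrays compared. Outside the comparison 1 block of TLR7 KO at 6 h and 359 of TLR9 KO at 0 h met it, and these were kept. The count with the patch kept is given beside each comparison.

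The genes named were the 12 largest rises and falls past the threshold (otherwise those with the largest smallest of the 3 differences), the leading members of 30 lists (661 members), and the 6 largest differences of differences in each direction. The comparison and the lists were chosen with earlier results of these data known. A further gene is named where it shows a list's members. The code was tested on simulated data.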

Additional observations from a re-analysis of the deposited data

Results flagged for a closer look

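The late change differed between the double knockout and the other genotypes by limma's test of the difference itself in 2165 genes, all of which rest on 1 residual degree of freedom and on arrays of another slide. The named genes with a higher difference in the double knockout were Siglecf (4.13), Lpl (3.97), Ccl4 (3.96), Mreg (3.49), Cst7 (3.45) and Grhl1 (3.33). Those with a lower one were Serpina3g (-3.28), Klf2 (-2.70), Cpne5 (-2.65), Gimap7 (-2.63), Bnip3 (-2.61) and Ly6c1 (-2.53). Of the 12, another tested probe existed for 4 and gave a difference of at least 2-fold in the same direction for each of the 4. Lpl was above background in Cy5 on 2 of 3 arrays at 42 h.

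Each of the 55 called genes was higher at 42 h in WT, TLR7 KO and the double knockout and lower in TLR9 KO as labelled, a difference that was not tested.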

How the results depend on the processing

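The number of genes called in the 3 pairs was 55, and ranged with the processing. It was 59 without background subtraction, 12 with median centring (which moved the median of all genes to -0.28), 242 with the Cy5 channel alone, 0 with the processed signals, 0 with the authors' series table, 19 with the mean of probes, 73 without a filter and 55 with the stricter filter, and asking for a 2-fold difference as well moved it by less than 1.5 times. With the 12 arrays of all times it was 230, and 52 of these were lower. With the TLR9 KO pair it was 0, and with no replicate block (genotype, the pairing, left out of the fit) it was 0. With the blank patch kept, an alternative chosen after seeing the data, it was 26. Leaving out 1 pair at a time gave 0 to 4513. The cause was not tested. The 55 genes kept a positive difference throughout, with a highest adjusted p (limma) of 0.933 with the TLR9 KO pair and of 0.647 over the other settings. Leaving out a pair or the pairing could not turn a sign, since each gene rose in all of the 3 pairs.

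The difference of differences called 2165 genes, 4712 with median centring, 731 with the Cy5 channel alone, 0 with the authors' series table, 2216 without a filter, 2131 with the stricter filter and 917 with the patch kept, 856 of them among the 2165. Leaving out a pair leaves no residual degree of freedom there.

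Of values that did not pass, Edem1 reversed to -0.15 with median centring and -0.29 with the Cy5 channel alone, Rpl22 to 0.10 with that channel and Ttpal to 0.14 with the mean of probes. The mean of the pairs left ranged from -1.21 to 0.91 for Siglecf and from -1.03 to 1.1 for Lpl when a pair was left out, negative in both without the double knockout. Of the list medians under the alternatives, 398 moved by less than the SD of the 3 pairs and 52 by more.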

Other observations

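Some genes not described above also had other late differences in the double knockout than in the other genotypes. Ltb, a lymphotoxin, had a 42 h minus 24 h difference of -0.67 in the double knockout, 1.70 in WT and 1.68 in TLR7 KO, and Tnfsf14, another ligand of the lymphotoxin beta receptor, had 1.28, -1.93 and -2.13 in the same order, and was well above background in Cy5 on 2 of 3 arrays at 42 h. Tnfsf9, which binds the costimulatory receptor 4-1BB, had 1.43, -0.18 and 0.03. Eaf2, a transcription elongation factor high in plasma cells, had 0.48 in the double knockout, 2.33 in WT and 2.30 in TLR7 KO, whereas Sdc1, the plasma cell surface marker, had 1.0, 0.82 and 0.62. Bcl6, the repressor of germinal centre B cells, had -1.66, -0.07 and 0.07. The difference of differences passed for Ltb (limma adjusted p = 0.0013), Tnfsf14 (0.000751), Tnfsf9 (0.0035), Eaf2 (0.00178) and Bcl6 (0.00248) and not for Sdc1 (0.325). These genes were chosen after their values were seen.

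Of the 55 genes called higher at 42 h, 12 had another tested probe. The 13 other probes were all higher at 42 h in the mean of the 3 pairs, 9 of them at least 2-fold.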
